A study of Homo sapiens with 9 samples.

Results

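The innate RNA and DNA sensors described here are 10 genes of 22465 that the arrays name: the sensors TLR3, RIGI, IFIH1, DHX58, CGAS and IFI16, the adaptors TICAM1, MAVS and STING1, and the kinase TBK1. They were chosen by symbol, as transcript clusters (sets of probes that read 1 gene) annotated with exactly 1 symbol, and each of the 10 matched 1 cluster, so no choice between clusters was needed. The cells were MM.1S, an established human multiple myeloma line, grown in RPMI1640 with serum. They received the solvent DMSO, 5 nM HL13 or 5 nM LBH589, both compounds being dissolved in DMSO, and total RNA was taken after 24 h. LBH589, or panobinostat, blocks histone deacetylases, and the labels give nothing of HL13 beyond its code. There were 3 arrays per group, called biological replicates in the labels without a word on the cultures, so p values measure the spread between these arrays, which may be technical. A single cell line without immune or stromal partners limits what these arrays can show of sensing in a tumour.

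Cells recognise foreign or misplaced nucleic acid with a small set of receptors. TLR3 binds double-stranded RNA inside endosomes and signals through the adaptor TRIF, the product of TICAM1. In the cytosol, RIG-I (RIGI) and MDA5 (IFIH1) bind viral RNA and pass the signal to MAVS on mitochondria, while LGP2 (DHX58), a relative without signalling domains, tunes both. DNA in the cytosol is bound by cGAS, which makes a cyclic dinucleotide that activates STING on the endoplasmic reticulum, and IFI16 is a further DNA-binding protein that can feed into STING. The routes meet at the kinase TBK1, which phosphorylates interferon regulatory factors and so switches on type I interferon genes. Several of the sensors are themselves induced by interferon through promoter elements called ISRE.

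For the sensors that changed and had one, the start-site windows are shown because they carry, or lack, the interferon elements just named. RefSeq promoter windows of 300 bases (GRCh38.p14, written along the gene's strand) matched 7 of the 10 genes, and 4 of those 7 genes are printed. No window was available for CGAS, which also changed, or for DHX58 and STING1. Capitals mark the ISRE core, searched as GAAANNGAAA, and the STAT-binding GAS element, searched as TTCNNNGAA, each on both strands, with overlapping matches left in.
TLR3, chr4:186068906-186069205, + strand: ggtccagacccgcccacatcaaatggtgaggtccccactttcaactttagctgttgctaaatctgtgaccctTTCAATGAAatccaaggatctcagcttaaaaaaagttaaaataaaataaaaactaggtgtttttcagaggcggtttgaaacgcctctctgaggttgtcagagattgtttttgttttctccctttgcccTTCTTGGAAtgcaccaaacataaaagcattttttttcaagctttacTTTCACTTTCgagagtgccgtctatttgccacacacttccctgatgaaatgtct
RIGI, chr9:32526147-32526446, - strand: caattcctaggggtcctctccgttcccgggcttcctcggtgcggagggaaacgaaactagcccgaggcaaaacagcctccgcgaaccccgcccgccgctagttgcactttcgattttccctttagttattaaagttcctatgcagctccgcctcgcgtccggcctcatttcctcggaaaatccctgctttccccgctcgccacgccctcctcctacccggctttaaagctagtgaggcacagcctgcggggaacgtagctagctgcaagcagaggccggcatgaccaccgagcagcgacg
IFIH1, chr2:162318635-162318934, - strand: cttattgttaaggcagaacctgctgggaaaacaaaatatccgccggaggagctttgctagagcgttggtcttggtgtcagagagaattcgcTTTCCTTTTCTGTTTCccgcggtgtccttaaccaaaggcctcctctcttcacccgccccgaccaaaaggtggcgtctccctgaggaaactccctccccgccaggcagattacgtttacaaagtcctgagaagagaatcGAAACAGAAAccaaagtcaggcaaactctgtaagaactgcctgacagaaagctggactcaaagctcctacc
IFI16, chr1:159008741-159009040, + strand: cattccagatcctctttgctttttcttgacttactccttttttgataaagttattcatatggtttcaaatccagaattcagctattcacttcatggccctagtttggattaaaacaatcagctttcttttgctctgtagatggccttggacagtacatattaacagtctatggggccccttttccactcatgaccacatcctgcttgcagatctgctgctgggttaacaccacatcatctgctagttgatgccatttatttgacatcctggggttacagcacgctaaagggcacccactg
The TLR3 window held 1 ISRE match, beginning 4 bases before the annotated start, and 2 GAS matches, 178 and 50 bases before it. The IFIH1 window held 3 ISRE matches, beginning 159, 153 and 21 bases before the start, of which the first and second overlap. Neither element as spelled was found in the windows of RIGI and IFI16, nor in those of TICAM1, MAVS and TBK1. Of 27305 promoter windows of the same length, 3.65% held the ISRE core and 7.88% the GAS element. The GC box GGGCGG, left in lower case, was present in the windows of TLR3, RIGI, IFIH1, TICAM1 and MAVS and in 44.6% of all windows. CpG dinucleotides numbered 1 in the IFI16 window and 5 in that of TLR3, against 12 for IFIH1, 27 for RIGI, 30 for TICAM1, 34 for MAVS and 35 for TBK1, with a median of 14 over all windows. A match of letters is a description of the window and no evidence of binding.

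The table as a whole was even. Array medians over 70523 transcript clusters lay between 5.33 and 5.38 on the log2 scale, and replicate arrays of a group differed by a root mean square of 0.0902 to 0.144 over the 22465 genes, the largest value being that between LBH589 replicates 1 and 3. All 12 markers fixed for plasma cells were above the array median on every DMSO array, and 11 of 12 remained so on every array of either treatment, while 4 of 11 measured monocyte, macrophage and dendritic cell markers were so in each group. On every DMSO array 6 of 10 T and NK cell markers and 6 of 8 fibroblast and endothelial markers also lay above it. The median was taken over 70523 clusters, 45199 of them without a symbol, so a level above it does not by itself show that a gene is expressed. The mean log2 level of the plasma cell markers moved with treatment, from 9.75 to 9.80 on DMSO arrays to between 8.48 and 8.52 with HL13 and between 8.45 and 8.47 with LBH589. That of the myeloid markers was 5.07 to 5.09, 5.01 to 5.06 and 4.99 to 5.06. The part of these shifts in the results below was not tested.

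TLR3 and RIGI rose and IFIH1, CGAS and IFI16 fell with each compound. DHX58, TICAM1, STING1 and TBK1 were called in neither comparison with DMSO, and MAVS only with HL13. Against DMSO, 3 of 10 members were called higher and 3 lower with HL13, where 22.9% and 21.5% of all 22465 genes were called higher and lower. With LBH589 2 members were called higher and 3 lower, beside 20.9% and 19.0% of all genes. The share of members called was thus not far from that of all genes. Their median log2 fold change was 0.045 with HL13 and 0.0065 with LBH589, beside -0.0017 and 0.0071 over all genes. Without regard to sign, their median change was 0.29 with HL13 and 0.21 with LBH589, beside 0.11 and 0.093 over all genes. Calls are adjusted p values under 0.05 from limma, adjusted over all 22465 genes, and values after ± are standard errors unless stated, with n = 3 arrays per group. Both comparisons share the DMSO arrays. In RNA from bulk cells, a change in the number of cells that carry a transcript and in its amount per cell cannot be told apart.

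**Figure D1:**
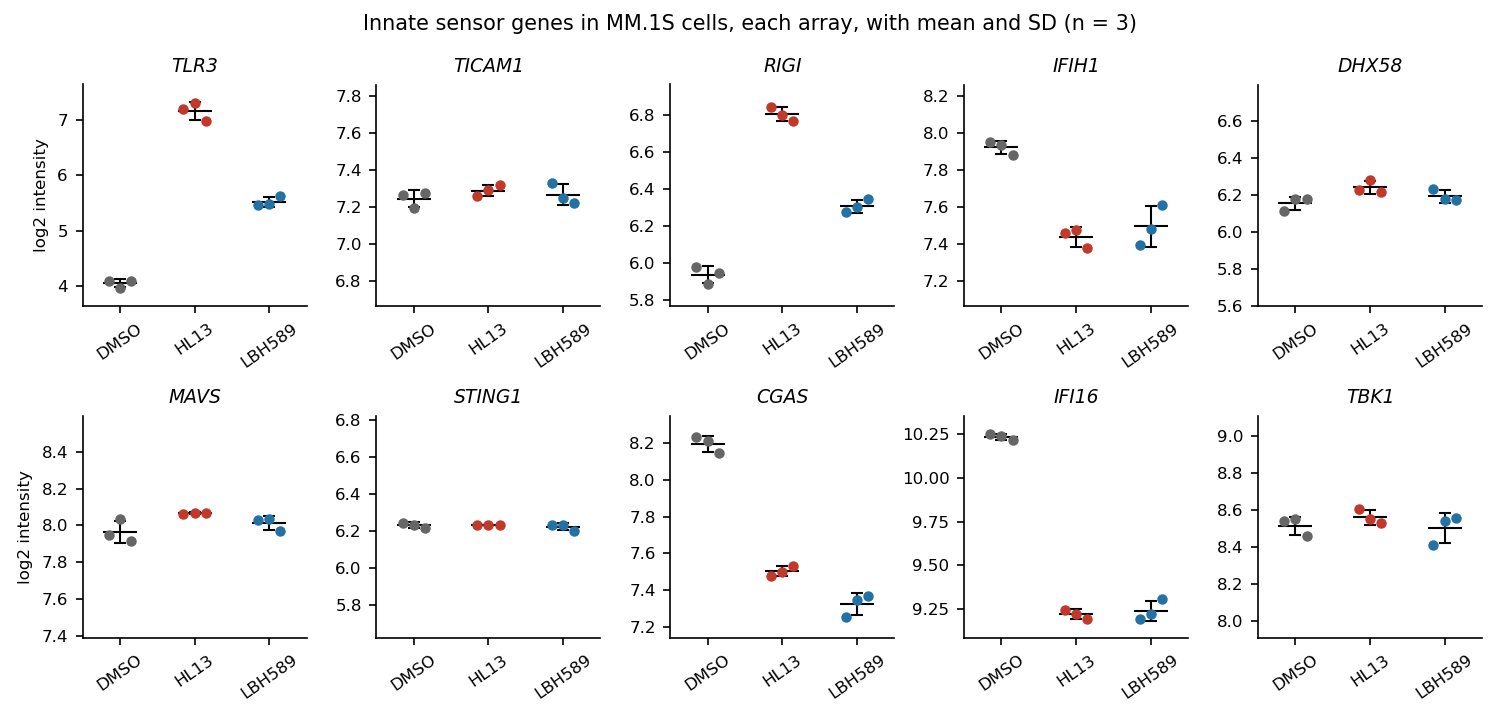
Log2 intensity of each of the 10 genes on every array, with 1 panel per gene and its own axis (spanning at least 1.2 log2 units); points are arrays, bars the mean and SD of 3 arrays for DMSO, HL13 and LBH589. TLR3 and RIGI climbed from DMSO through LBH589 to HL13 without overlap between groups, IFIH1, CGAS and IFI16 dropped with both compounds, and TICAM1, STING1 and TBK1 overlapped in every comparison.

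TLR3 showed the widest movement. Its transcript cluster (TC04000912.hg.1) read 4.10, 3.97 and 4.08 on the DMSO arrays, 7.19, 7.31 and 6.98 on the HL13 arrays, and 5.46, 5.48 and 5.62 on the LBH589 arrays. The 3 groups did not overlap, and the gap between the highest DMSO and lowest HL13 array was 2.88. TLR3 rose by 3.11 ± 0.082 with HL13 (8.64-fold, 95% interval 2.92 to 3.30 on the log2 scale, adjusted p 5.5e-09 by limma) and by 1.47 ± 0.082 with LBH589 (2.78-fold, 1.29 to 1.66, adjusted p 6.3e-07). Among all 22465 genes this was rank 10 of the rises with HL13 and rank 85 of those with LBH589. TLR3 lay below the array median on all 3 DMSO arrays and above it on all 6 treated arrays. The table holds no background values, so how far the dim DMSO level limits the fold was not tested. TICAM1, the adaptor through which TLR3 signals, did not move with it. Its levels were 7.26, 7.19 and 7.27 with DMSO, 7.26, 7.29 and 7.32 with HL13, and 7.33, 7.25 and 7.22 with LBH589, and all groups overlapped. The differences from DMSO were 0.044 (95% interval -0.043 to 0.13, adjusted p 0.420) and 0.022 (-0.064 to 0.11, adjusted p 0.740).

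The 3 RIG-I-like receptors, which share a helicase core, took separate courses. RIGI (TC09000999.hg.1) read 5.98, 5.89 and 5.95 with DMSO, 6.85, 6.80 and 6.77 with HL13, and 6.28, 6.30 and 6.35 with LBH589, again with no overlap between any groups. It rose by 0.87 ± 0.035 with HL13 (1.83-fold, adjusted p 6.6e-08) and by 0.37 ± 0.035 with LBH589 (1.29-fold, adjusted p 2.2e-05). IFIH1 (TC02002481.hg.1) went the other way. It read 7.95, 7.94 and 7.88 with DMSO, 7.46, 7.47 and 7.38 with HL13, and 7.39, 7.48 and 7.61 with LBH589, so that both treated groups lay under all DMSO arrays and overlapped each other. IFIH1 fell by 0.49 ± 0.055 with HL13 (adjusted p 6.0e-05) and by 0.43 ± 0.055 with LBH589 (adjusted p 1.6e-04), to 0.714 and 0.743 of the DMSO level. DHX58 (TC17001523.hg.1), whose product lacks the signalling domains, read 6.12, 6.18 and 6.18 with DMSO, 6.23, 6.28 and 6.22 with HL13, and 6.23, 6.18 and 6.17 with LBH589. Its HL13 arrays lay above its DMSO arrays by a gap of 0.040, and its difference of 0.086 ± 0.032 missed the threshold (adjusted p 0.0566, unadjusted p 0.0256). With a filter on dim clusters the same value passed (adjusted p 0.0498, range over the alternatives 0.0435 to 0.388), and with LBH589 the difference was 0.038 (95% interval -0.035 to 0.11, adjusted p 0.442).

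MAVS, the mitochondrial adaptor on which RIG-I and MDA5 converge, had the smallest change called among the members. It read 7.95, 8.03 and 7.92 with DMSO, 8.06, 8.07 and 8.07 with HL13, and 8.03, 8.04 and 7.97 with LBH589. The HL13 arrays lay within an SD of 0.0043 of each other and above all DMSO arrays, by a gap of 0.028. MAVS rose by 0.10 ± 0.035 with HL13 (1.07-fold, adjusted p 0.0446), while the difference with LBH589 was 0.048 (95% interval -0.032 to 0.13, adjusted p 0.361). The call for HL13 was fragile. It was lost in 10 of 16 alternatives, among them the arrays shifted to a common median (0.071, adjusted p 0.141) and the fit without DMSO replicate 3 (0.076, adjusted p 0.150). It was also lost without DMSO replicate 1 (0.092, adjusted p 0.121), without any 1 of the 3 HL13 arrays, without LBH589 replicate 1 (adjusted p 0.0511) and without LBH589 replicate 2 (adjusted p 0.0611).

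Both DNA sensors fell. IFI16 (TC01001348.hg.1) read 10.25, 10.24 and 10.22 with DMSO, 9.25, 9.22 and 9.19 with HL13, and 9.20, 9.22 and 9.31 with LBH589. The treated arrays lay at least 0.91 below every DMSO array and overlapped one another. IFI16 fell by 1.01 ± 0.034 with HL13 (adjusted p 2.1e-08) and by 0.99 ± 0.034 with LBH589 (adjusted p 3.1e-08), to 0.496 and 0.502 of its DMSO level. CGAS (TC06001873.hg.1) read 8.23, 8.21 and 8.15 with DMSO, 7.48, 7.50 and 7.53 with HL13, and 7.26, 7.35 and 7.37 with LBH589. No groups overlapped, and LBH589 gave the lowest values. CGAS fell by 0.69 ± 0.038 with HL13 (adjusted p 4.4e-07) and by 0.87 ± 0.038 with LBH589 (adjusted p 1.3e-07), to 0.620 and 0.547 of its DMSO level.

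STING1, the adaptor downstream of cGAS, and TBK1 did not follow the DNA sensors. STING1 (TC05001845.hg.1) read 6.24, 6.23 and 6.21 with DMSO, 6.23 on each HL13 array, and 6.23, 6.23 and 6.20 with LBH589. The value 6.23144 was shared exactly by 6 of the 9 arrays. Such repeats of a value within a cluster were common in the deposited table, since 29.2% of all clusters and 39.0% of the tested genes had at least 1. They make a spread of 0 on the HL13 arrays of STING1 that is no measure of biological variation. DHX58 read 6.17701 on 3 arrays, and RNASEH2B and GBP4, given below, each had 1 value on all 3 LBH589 arrays. The differences of STING1 were 0.0022 with HL13 (95% interval -0.052 to 0.056, adjusted p 0.960) and -0.0090 with LBH589 (-0.063 to 0.045, adjusted p 0.841). TBK1 (TC12000570.hg.1) read 8.54, 8.55 and 8.46 with DMSO, 8.61, 8.55 and 8.53 with HL13, and 8.41, 8.54 and 8.56 with LBH589, and all groups overlapped. Its differences were 0.046 ± 0.045 (adjusted p 0.484) and -0.012 ± 0.045 (adjusted p 0.890). With quantile normalization TBK1 passed as higher with HL13 (0.12, adjusted p 0.0307, range over the alternatives 0.0307 to 0.836).

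**Figure D2:**
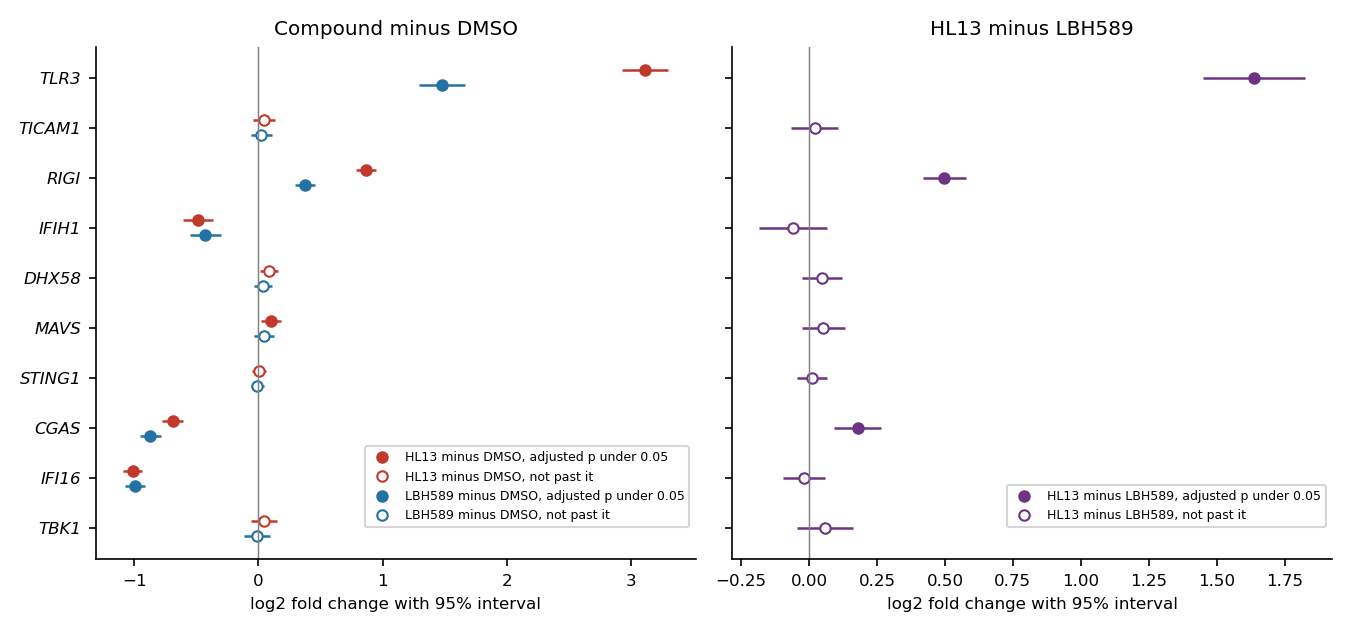
Log2 fold changes with 95% intervals (n = 3 arrays per group) for each compound against DMSO on the left and for HL13 minus LBH589 on the right, with filled points for an adjusted p under 0.05. On the left TLR3 stands at 3.11 and 1.47 and IFI16 at -1.01 and -0.99, and on the right TLR3, RIGI and CGAS are the filled points, at 1.64, 0.50 and 0.18.

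The direct comparison of the compounds at equal dose and time asks which sensors responded unequally. An equal dose need not be an equal effect. Against DMSO, HL13 changed 9981 of all genes and LBH589 8971, and the part of potency in the differences was not tested. TLR3, RIGI and CGAS were higher with HL13 than with LBH589, 3 of 10 members beside 11.7% of all genes. No member was called lower, beside 11.6% of all genes, and 0 were lower at an unadjusted p under 0.05. TLR3 was 1.64 ± 0.082 higher with HL13 (3.11-fold, adjusted p 3.6e-06), rank 6 among all 22465 genes for this difference, and RIGI was 0.50 ± 0.035 higher (1.41-fold, adjusted p 1.9e-05). For both, the difference lay on top of a rise with each compound. For CGAS, HL13 gave the shallower fall, by 0.18 ± 0.038 (1.13-fold, adjusted p 0.00808), and its HL13 arrays lay above its LBH589 arrays by a gap of 0.11. IFI16 and IFIH1 fell by amounts that were not told apart, with HL13 minus LBH589 at -0.019 (95% interval -0.097 to 0.058, adjusted p 0.774) and -0.058 (-0.18 to 0.066, adjusted p 0.546). For the others the interval ran from -0.024 to 0.12 for DHX58, -0.027 to 0.13 for MAVS, -0.065 to 0.11 for TICAM1, -0.043 to 0.065 for STING1 and -0.045 to 0.16 for TBK1. In order of level, TLR3 and RIGI thus ran DMSO, LBH589, HL13 with every step past the threshold, and CGAS ran LBH589, HL13, DMSO likewise. IFI16 and IFIH1 had DMSO on top and no called difference beneath it.

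Genes with the most similar profiles were sought over the 9 arrays, as the smallest root mean square difference after each gene's DMSO mean was subtracted. The search covered only members whose group means spanned at least 1 log2 unit, TLR3 and IFI16. Loci with LOC, LINC or -AS in the symbol were left out. Nearest to TLR3 were PTGS2, which encodes the prostaglandin-forming cyclooxygenase (0.21), the short-chain dehydrogenase gene DHRS2 (0.24) and CCL5, a chemokine (0.35). PTGS2 stood 3.0 ± 0.073 above DMSO with HL13 and 1.16 ± 0.073 with LBH589, and CCL5 2.52 ± 0.042 and 1.47 ± 0.042. Like TLR3, PTGS2 lay below the array median on every DMSO array. Nearest to IFI16 were the chaperonin subunit gene CCT5 (0.029), the chromatin remodelling gene BAZ1A (0.032) and the RNA helicase gene DDX6 (0.037). These are descriptions over 9 arrays in 3 groups, in which many genes share the step between treated and untreated cells.

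**Figure D3:**
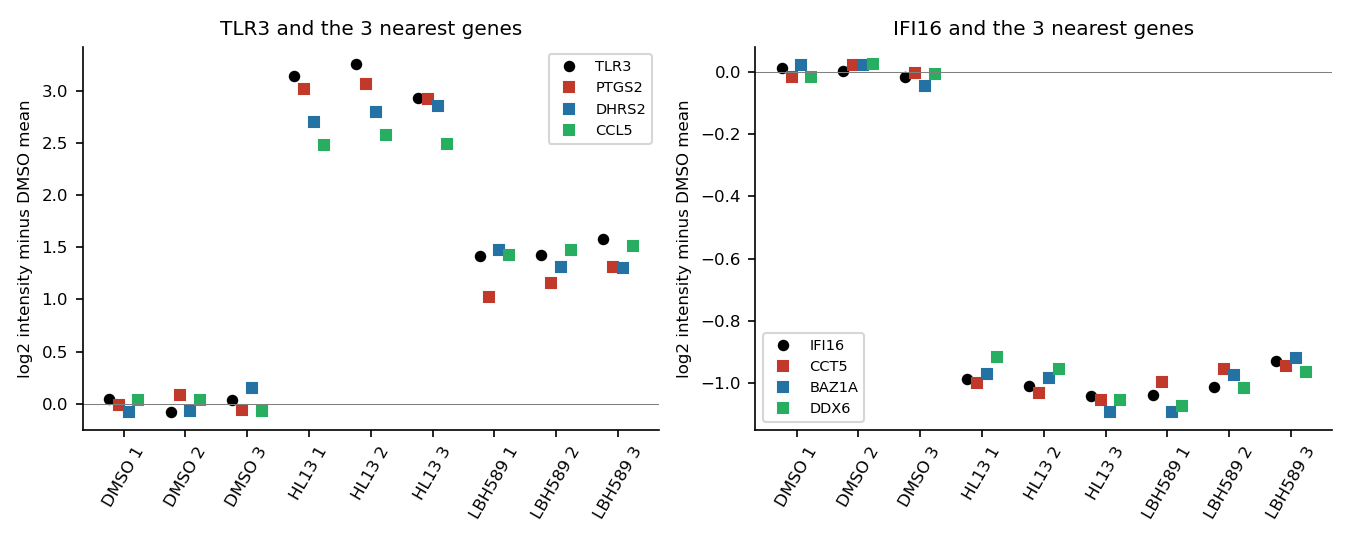
Log2 intensity minus the gene's DMSO mean on each of the 9 arrays, for TLR3 and IFI16 (black circles) and for the 3 genes nearest to each (coloured squares). Around TLR3 the HL13 arrays sit higher than the LBH589 arrays for all 4 genes, whereas around IFI16 the arrays of both treatments lie together, near -1.

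Of the other nucleic acid sensors 25 were measured, and 8 rose and 13 fell with HL13, where 22.9% and 21.5% of all genes did. With LBH589 6 rose and 12 fell, beside 20.9% and 19.0% of all genes. The list's medians were -0.13 and -0.080, and the imbalance of its directions was not tested. ZBP1, a sensor of Z-form nucleic acid, fell by 1.41 ± 0.047 and 1.43 ± 0.047 (adjusted p 2.2e-08 and 2.6e-08), and TLR7, an endosomal receptor for single-stranded RNA, by 0.91 ± 0.080 and 1.06 ± 0.080. OAS2, which makes oligoadenylate on double-stranded RNA, changed by -0.98 ± 0.043 and -1.29 ± 0.043, whereas its relatives OAS1, OAS3 and OASL rose with both compounds. IFIT1, which binds viral RNA, rose by 1.34 ± 0.070 and 0.45 ± 0.070 from a level under the array median in every group. The study names IFIT1 too as increased in MM1S tumours treated with purinostat mesylate. EIF2AK2, the RNA-activated kinase PKR, was lower by small amounts (-0.13 ± 0.040, adjusted p 0.0265, and -0.27 ± 0.040, adjusted p 3.9e-04), and the call for HL13 was lost without HL13 replicate 3 (-0.095, adjusted p 0.0917) and without any 1 DMSO array. With HL13 set against LBH589, 11 of the 25 were higher and 2 lower, DDX41 (-0.33) and POLR3A (-0.23), beside 11.7% and 11.6% of all genes. The count of 11 became 7 without HL13 replicate 2.

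UNC93B1, the chaperone that carries TLR3 and TLR7 to endosomes, fell with both compounds, with changes of -1.36 ± 0.047 for HL13 and -1.42 ± 0.047 for LBH589 (adjusted p 2.3e-08 and 2.5e-08), from a DMSO level of 10.00. It moved opposite to TLR3 on the same arrays. Of 27 measured adaptors, chaperones and ubiquitin ligases, 8 rose and 11 fell with HL13 and 6 rose and 11 fell with LBH589 (medians -0.051 and -0.087). The rises were near the shares of all genes, 22.9% and 20.9%, and the falls stood beside 21.5% and 19.0%. TRAF3, which links the adaptors to TBK1, fell by 0.66 ± 0.036 and 0.76 ± 0.036, its relative TRAF5 by 0.45 ± 0.052 and 0.71 ± 0.052, and CNPY3, a chaperone of Toll-like receptors, by 0.56 ± 0.046 and 0.60 ± 0.046. Set against LBH589, HL13 gave 8 higher and 2 lower, CYLD (-0.27) and TOMM70 (-0.42), beside 11.7% and 11.6% of all genes. The count of 8 became 5 without HL13 replicate 2 and also 5 without LBH589 replicate 2.

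Of 17 measured kinases and transcription factors, 4 rose and 8 fell with HL13 and 5 rose and 8 fell with LBH589 (medians -0.10 and -0.055), against the same shares of all genes. With HL13 set against LBH589 the list was even, at 5 higher and 5 lower, beside 11.7% and 11.6% of all genes. IKBKE, the kinase related to TBK1, fell by 0.38 ± 0.027 and 0.56 ± 0.027 (adjusted p 2.6e-06 and 2.9e-07). NFKB1, a subunit of NF-kB, fell by 0.78 ± 0.039 and 0.77 ± 0.039, and the acetyltransferase gene CREBBP by 0.90 ± 0.043 and 0.92 ± 0.043. JUN rose by 1.37 ± 0.038 and 0.94 ± 0.038, and TAB3, an adaptor of the kinase TAK1, by 0.72 ± 0.046 and 0.96 ± 0.046. IRF3, the main substrate of TBK1, was 0.12 lower with HL13 (adjusted p 0.0235), a call that was lost without DMSO replicate 2 (-0.11, adjusted p 0.0816), without DMSO replicate 3 (adjusted p 0.0634) and without any 1 HL13 array. IRF7, which amplifies interferon production, stood at 0.13 with HL13 (adjusted p 0.0614) and fell by 0.15 with LBH589 (adjusted p 0.0397), and was 0.28 ± 0.049 higher with HL13 than with LBH589 (adjusted p 0.00325). Its call for LBH589 was lost in 10 alternatives, among them the fit without LBH589 replicate 3 (-0.099, adjusted p 0.104), and held in the fits without DMSO replicate 1 and without LBH589 replicate 1 alone among those that left out an array.

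Genes of nucleic acid clearance and self-tolerance moved in both directions. Of 17 measured, 6 were higher and 7 lower for each compound (medians -0.036 and -0.050). Of all genes, 22.9% and 21.5% were higher and lower with HL13, and 20.9% and 19.0% with LBH589. Between the compounds 4 were higher and 3 lower with HL13, beside 11.7% and 11.6% of all genes. The count of 3 became 5 after quantile normalization. ENPP1, which hydrolyses the cyclic dinucleotide made by cGAS, rose by 1.96 ± 0.040 with HL13 and by 1.0 ± 0.040 with LBH589 and was 0.95 ± 0.040 higher with HL13 (adjusted p 2.0e-06). RNASEH2B, a subunit of the nuclease that removes RNA from RNA-DNA hybrids, fell by 1.29 ± 0.055 with each. PNPT1 and SUPV3L1, which degrade double-stranded RNA in mitochondria, fell further with HL13, PNPT1 at -1.3 ± 0.043 against -0.68 ± 0.043 and SUPV3L1 at -0.98 ± 0.038 against -0.18 ± 0.038, and both differences between the compounds were called (adjusted p 1.7e-05 and 3.0e-06).

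Of the measured interferon genes downstream of the sensors, only IFNG and IFNK passed the test against DMSO. IFNB1, the type I interferon that TBK1 signalling induces, lay below the array median on all 9 arrays, and its differences from DMSO were -0.11 ± 0.079 (adjusted p 0.304) and -0.10 ± 0.079 (adjusted p 0.399). The list of 19 measured interferons, receptors, receptor kinases, SOCS1 and SOCS3 had medians of 0.0071 and -0.0016. With HL13 4 rose and 3 fell, beside 22.9% and 21.5% of all genes. With LBH589 3 rose and 3 fell, beside 20.9% and 19.0%. The rises with HL13 included SOCS1 (0.25 ± 0.079, adjusted p 0.0273). IFNG, the type II interferon, was -0.17 ± 0.038 and -0.15 ± 0.038, and IFNK, a keratinocyte interferon, 0.18 ± 0.048 with LBH589 (adjusted p 0.0144), both below the array median on every array. Without LBH589 replicate 1 the count of rises with LBH589 was 5. With HL13 set against LBH589, 5 were higher and 1, IFNK, lower, beside 11.7% and 11.6% of all genes. Of those higher, SOCS1 differed most (0.40 ± 0.079, adjusted p 0.00578). The count of 5 became 3 without HL13 replicate 1, without HL13 replicate 2 or without LBH589 replicate 1. The receptor subunit gene IFNGR1 rose by 1.65 ± 0.046 and 1.44 ± 0.046 and the receptor kinase gene JAK1 by 0.79 ± 0.040 and 0.65 ± 0.040. The type I receptor gene IFNAR1 fell by 0.32 ± 0.039 and 0.42 ± 0.039, and IFNGR2 by 0.21 ± 0.025 and 0.38 ± 0.025.

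Among the genes that act as outputs of sensing, 34 were measured. With HL13 22 rose and 5 fell, with a median of 0.26, beside 22.9% and 21.5% of all genes. With LBH589 9 rose and 5 fell, with a median of 0.046, beside 20.9% and 19.0% of all genes. The counts with LBH589 were near these shares. Set against LBH589 directly, HL13 gave 21 of 34 higher and 0 lower by limma, with 1 lower at an unadjusted p under 0.05, beside 11.7% and 11.6% of all genes, and a median of 0.18. The other 13 did not pass, among them HERC5 (-0.026), CXCL10 (-0.18) and GBP1 (-0.12). The chemokine gene CCL5 rose by 2.52 ± 0.042 and 1.47 ± 0.042, and the interferon-induced IFI6 by 2.5 ± 0.070 and 1.49 ± 0.070. The guanylate-binding GBP4 rose by 1.61 ± 0.043 and 0.55 ± 0.043 and the antiviral RSAD2 by 1.13 ± 0.025 and 0.48 ± 0.025, each from below the array median in DMSO. The 5 that fell were ISG20, IFI35, BST2, GBP1 and CXCL10 with both compounds, CXCL10 by 0.70 ± 0.075 and 0.52 ± 0.075 (adjusted p 4.4e-05 and 3.8e-04). Of this list 8 genes are among those the study names as increased in MM1S tumours treated with purinostat mesylate. It also names others, such as GBP4 and MX2 among its primers and ISG15, IFI35, TNF and IL6 in mouse marrow cells. The counts are therefore not independent evidence of direction. With HL13, MX1, RSAD2, IFI44, IFIT3 and CCL7 of the 8 rose and CXCL10 fell. Of these, IFI44 and CCL7 lay below the array median on every array, and IFIT3 was above it on only 2, both with HL13. IFI27 (0.041, adjusted p 0.499) and CCL25 (0.095, adjusted p 0.162) were not called. With LBH589 only RSAD2 of the 8 rose, CXCL10 fell and the other 6 were not called.

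**Figure D4:**
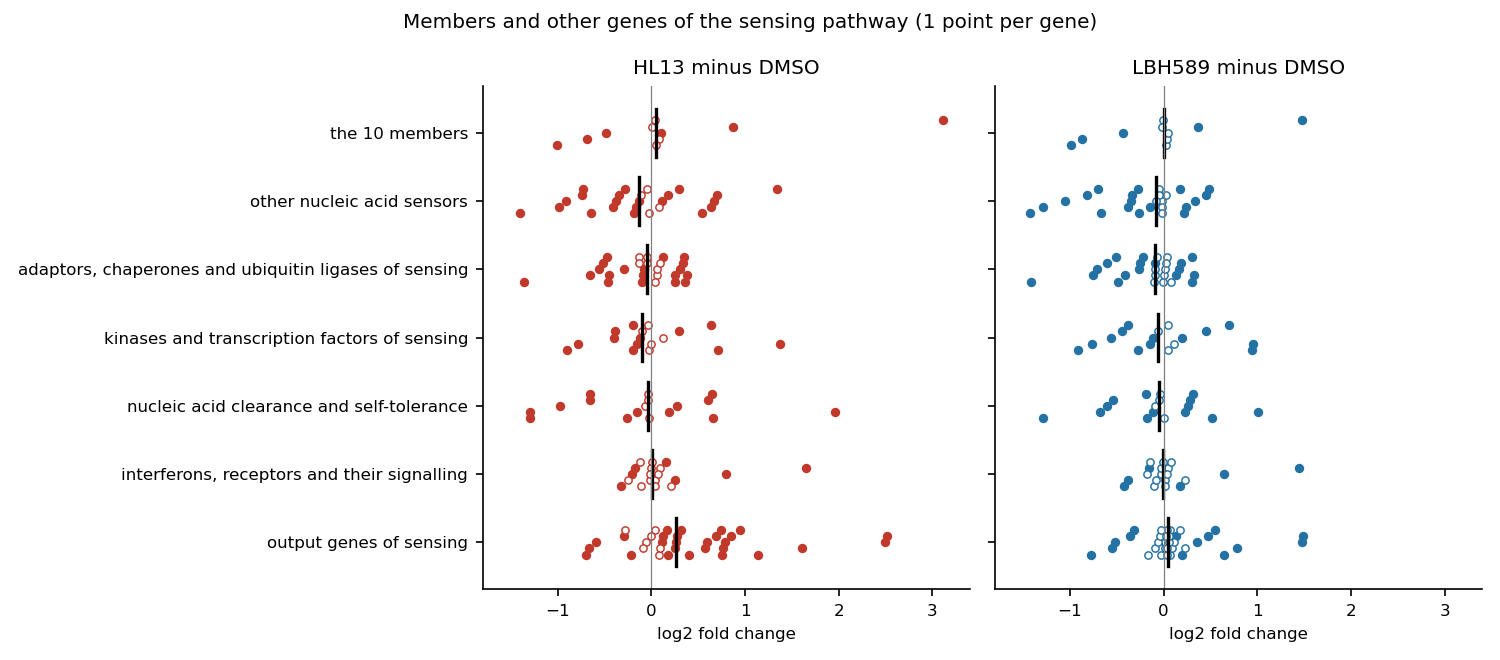
Log2 fold change of every measured gene (1 point each) for HL13 minus DMSO and LBH589 minus DMSO, by list; filled points have an adjusted p under 0.05 and the black bar is the list's median. The output genes have their median at 0.26 with HL13 and 0.046 with LBH589, while the medians of the other lists and of the 10 members lie between -0.13 and 0.045.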

How the data were processed

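Total RNA of 9 MM.1S samples was fragmented, labelled with biotin and read on Affymetrix whole-transcript arrays, 1 per sample. The methods of the study describe sequencing of such cells, and no sequencing was used here. The authors deposited 1 log2 value per transcript cluster and array (1.72 to 14.6, base 2 inferred from this range). The sources used here do not give their summarisation or normalization. The number of arrays limits the precision (median standard error 0.044 over all genes). Of 70523 clusters, the platform annotation gave 23781 a single gene symbol, 1543 several and 45199 none, and only the first kind was analysed here. The brightest cluster on average stood for a gene with more than 1, giving 22465 genes. By Entrez number, 21497 clusters matched a GRCh38.p14 gene table, and 0 had another symbol there.

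A mean per group was fitted over all 9 arrays without a brightness filter, using lmFit and eBayes of limma 3.58.1 (R 4.3.3), with two-sided tests and Benjamini-Hochberg adjustment over all genes. The fit was also run on simulated data with independent normal noise. That noise lacked the exact repeats of the deposited values, so the run cannot show how the fit handles them. Alternatives were quantile normalization, arrays shifted to a common median, a filter (above the array median on at least 3 arrays, 15842 genes), the mean of a gene's clusters, only the 2 groups compared, eBayes with trend and robust options, a replicate block, and each array left out in turn. Named genes were all 10 members, up to 4 genes per list with the largest change against DMSO, and direct partners of members. Others, named to complete a count, were chosen after their values were seen. The members and lists were chosen with earlier results of these data known.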

Additional observations from a re-analysis of the deposited data

How the results depend on the processing

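The directions of TLR3, RIGI, CGAS and of IFI16 and IFIH1 against DMSO, and the calls of these 5 genes, held in all 16 alternatives. TLR3 stayed between 3.04 and 3.20 with HL13 and between 1.42 and 1.5 with LBH589, and the difference between the compounds stayed between 1.56 and 1.73 for TLR3, 0.48 and 0.52 for RIGI and 0.15 and 0.20 for CGAS. The count of members higher with HL13 ranged from 2 to 4, as MAVS, DHX58 and TBK1 crossed the threshold, while the other counts of members were the same in each alternative. The count of all genes changed ranged from 9206 to 10348 for HL13, from 8240 to 9068 for LBH589 and from 4163 to 5432 between the compounds. Same-numbered replicates did not deviate together (correlations of -0.21 to 0.039), so the numbers were not taken to pair the arrays. With a replicate block 9465, 8456 and 4392 genes were called, and of the members only MAVS lost its call (0.10, adjusted p 0.0548), as did IRF3 and EIF2AK2 with HL13 and IRF7 with LBH589 among the partners named, while 5 rather than 8 adaptors were higher with HL13 than with LBH589.

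Values that changed sign belonged to members without a call in that comparison. STING1 was -0.053 with HL13 after quantile normalization and -0.027 with arrays shifted to a common median, and -0.0099 for HL13 minus LBH589 after quantile normalization. TICAM1 with LBH589 was -0.00091 with the shifted arrays, and TBK1 with LBH589 was 0.036 after quantile normalization. Leaving out 1 array at a time gave -0.0058 to 0.0091 for STING1 with HL13, -0.017 to 0.0022 for STING1 with LBH589, -0.010 to 0.044 for TICAM1 with LBH589 and -0.041 to 0.033 for TBK1 with LBH589. For HL13 minus LBH589 it gave -0.00082 to 0.054 for TICAM1, -0.11 to 0.00078 for IFIH1 and -0.042 to 0.013 for IFI16. The cause was not tested. Scaling shifted the median of all genes by at most 0.030 in size (-0.030 for HL13 with arrays shifted to a common median). The filter on dim clusters kept all 10 members and lowered the count of other sensors higher with HL13 from 8 to 4 and of those higher than with LBH589 from 11 to 7, since dim sensors such as IFIT1 were no longer tested. It also lowered the count of output genes higher with HL13 from 22 to 15. Signal over background could not be judged, as the table has no background values.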
